A study of Mus musculus and Rattus norvegicus with 24 samples.

Results

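The genes described here are the 10 that make, sense and break down prostaglandin E2 and its precursor: the cyclooxygenases Ptgs1 and Ptgs2, the prostaglandin E synthases Ptges, Ptges2 and Ptges3, the receptors Ptger1, Ptger2, Ptger3 and Ptger4, and the degrading enzyme Hpgd. They were chosen by symbol, from the gene symbol that the array's platform annotation gives each transcript cluster, a set of probes read as 1 value. All 10 were measured among 18166 rat genes, and 8 of the 10 among 22180 mouse genes. Mouse Ptgs1 and Ptger1 had no cluster annotated to that symbol alone and were not analysed here.

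The samples were pieces of brain, 3 mm by 3 mm, from adult male C57BL/6 mice aged 8 to 10 weeks and adult male Sprague-Dawley rats aged 8 to 12 weeks. In the MCAO groups the middle cerebral artery was blocked for good by a filament tied in place, on the right side in mice and on the left in rats, and tissue came from the penumbra, the zone around the ischaemic core. Sham animals had the same operation and anaesthesia without the occlusion, and the matching area of the same side was taken. There were 8 groups of 3 animals with 1 array each: mouse MCAO at 6 h and mouse sham at 6 h, mouse MCAO at 2 h and mouse sham at 2 h, and the same groups in rat. All values below are on the log2 scale of the deposited arrays, so a difference of 1 is a doubling. A gene was said to rise or fall where limma gave a Benjamini-Hochberg adjusted p under 0.05 over all genes of that species.

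Prostaglandins are lipid signals made from arachidonic acid that phospholipases free from membranes. The cyclooxygenases turn it into prostaglandin H2, which terminal synthases convert to the single prostanoids, prostaglandin E2 among them. Ptgs1 is mostly constitutive, whereas Ptgs2 is an immediate early gene that neurons transcribe in response to synaptic activity and that inflammatory signals induce in glia and vessels. In the brain prostaglandin E2 takes part in fever, pain, blood flow and the response to ischaemia.

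All 8 neuronal markers taken as a check of the tissue were measured in both species, with mean levels from 8.22 (Nefm) to 12.77 (Snap25) in mouse and from 10.40 (Nefm) to 13.13 (Snap25) in rat. The arrays of 1 species had nearly equal medians within a time and lower ones at 6 h than at 2 h (5.92 to 5.96 against 6.03 to 6.06 in mouse, 5.82 to 5.87 against 6.67 to 6.75 in rat), so MCAO was compared with sham within a time only. Of the rat arrays at 2 h, MCAO replicate 2 stood apart on the first principal component, at 25.92 against 1.63 and 2.33 for the other MCAO arrays and -13.82 to -3.17 for the sham arrays. The mean of 7 striatal neuron markers in mice at 6 h was 7.14 to 7.32 in the MCAO arrays and 7.38 to 8.54 in the sham arrays, with sham replicate 2 the lowest of its group. The number of arrays limits the precision of every value, and with 3 animals a side the smallest p an exact permutation test can reach is 0.1, so each gene was tested in the model across all genes.

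Ptgs2 rose and Hpgd fell in mice at 6 h, 2 of the 8 members measured, against 7.43% of all genes called (3.21% rose and 4.23% fell). In mice at 2 h Ptgs2 alone, 1 of 8, rose, against 0.298% of all genes called and 0.149% that rose. In rats at 6 h Ptgs2 and Ptges, 2 of 10, rose and 0 fell, against 6.47% of all genes called (2.85% rose and 3.62% fell). In rats at 2 h limma called 0 of 10, against 0.0661% of all genes, and 2 had an unadjusted limma p under 0.05 (Ptgs2 and Hpgd), against 7.08% of all genes. The median effect of the members was 0.17 at 6 h and 0.14 at 2 h in mouse, beside -0.02 and -0.01 over all genes, and 0.14 at 6 h and 0.10 at 2 h in rat, beside -0.02 and -0.00 over all genes. In mice at 6 h the groups did not overlap for 4 of 8 members, Ptgs2, Ptges and Ptges2 with MCAO above and Hpgd with MCAO below, against 25.3% of all genes (10.7% above and 14.6% below). In mice at 2 h this held for 2 of 8, Ptgs2 and Ptger4, both above, against 14.6% of all genes and 6.24% above. It held in rats at 6 h for 4 of 10, Ptgs2, Ptges and Ptges3 above and Hpgd below, against 24.5% of all genes (9.73% above and 14.8% below). In rats at 2 h it held for 2 of 10, Ptger1 and Ptger4, both above, against 13.1% of all genes and 5.54% above. For the change between times limma called 0 of 8 members in mouse (0.171% of all genes) and 0 of 10 in rat (0.231%), with 2 of each at an unadjusted p under 0.05, Hpgd and Ptges in mouse (14.0% of all genes) and Ptgs2 and Ptges in rat (10.8%).

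**Figure D1:**
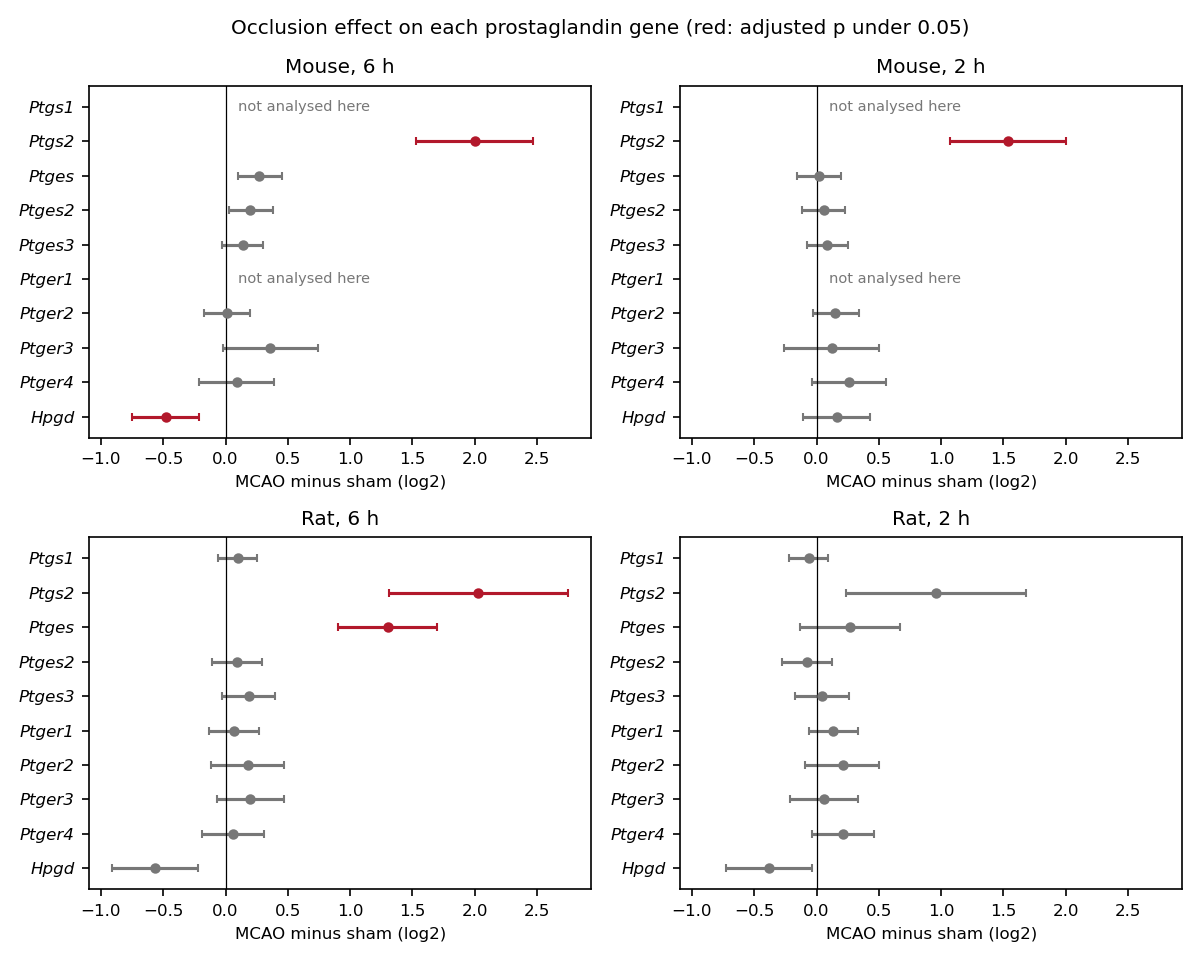
Effect of MCAO, as MCAO minus sham (x axis, log2), for each member (y axis), mouse above rat and 6 h left of 2 h; points are limma effects, bars 95% intervals, and red marks an adjusted p under 0.05. Ptgs2 stands at 2.00 and 1.54 in mouse and at 2.03 and 0.96 in rat, and Hpgd is the one member below 0 at 6 h in both species.

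Ptgs2, the inducible cyclooxygenase, was the member that moved most. In mice at 6 h it read 10.26, 10.35 and 10.09 in the 3 MCAO animals, against 8.23, 8.38 and 8.09 in the 3 sham animals. In mice at 2 h it read 10.29, 10.08 and 11.11 in the MCAO animals, against 8.73, 9.13 and 9.01 in the sham animals. Every MCAO mouse was above every sham mouse of its time by about a doubling or more. The mean at 6 h was 10.23 ± 0.13 after MCAO and 8.23 ± 0.15 after sham surgery (SD, n = 3 each), a 4-fold difference (log2 2.00 ± 0.21 SE, limma with Benjamini-Hochberg adjustment, adjusted p 0.000642). The mean at 2 h was 10.49 ± 0.54 after MCAO and 8.96 ± 0.21 after sham surgery (SD, n = 3 each), a 2.9-fold difference (log2 1.54 ± 0.21 SE, limma adjusted p 0.0128). Of all 22180 mouse genes, Ptgs2 ranked 9 from the top by size of rise at both times. The 2 h call was lost in a fit of the 6 arrays of that time alone (limma adjusted p 0.161), and without sham replicate 1 (limma adjusted p 0.0616) or sham replicate 3 (0.0568), with effects between 1.23 and 1.74 over the 6 arrays left out in turn. At 6 h the call held without any 1 array (effects 1.93 to 2.07), but with the striatal marker mean as a covariate the effect was 1.73 with a limma adjusted p of 0.0503. These are whole pieces of tissue, in which more cells of a type and more RNA per cell cannot be told apart.

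Rat Ptgs2 rose at 6 h and varied more between animals. At 6 h it read 10.77, 10.96 and 12.03 in the MCAO rats, against 9.34, 9.38 and 8.95 in the sham rats. The groups were well apart, and MCAO replicate 3 stood more than a doubling above the other MCAO rats. The means were 11.25 ± 0.68 after MCAO and 9.22 ± 0.24 after sham surgery (SD, n = 3 each), a 4.08-fold difference (log2 2.03 ± 0.33 SE, limma adjusted p 0.00449), and the effect stayed past the threshold without any 1 of the 6 arrays, at 1.64 to 2.27. At 2 h it read 10.61, 10.85 and 9.80 in the MCAO rats, against 9.87, 9.39 and 9.13 in the sham rats. Here the groups overlapped, since MCAO replicate 3 was just below sham replicate 1. The 2 h effect of 0.96 ± 0.33 (SE, 95% interval 0.24 to 1.68) did not pass (limma p 0.0134, adjusted p 0.535), and it was 0.74 without MCAO replicate 2, the array that stood apart. It still ranked 15 from the top of 18166 rat genes by size at 2 h, and 18 from the top at 6 h.

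The effect on Ptgs2 was larger at 6 h than at 2 h by 0.46 ± 0.30 in mouse (SE, 95% interval -0.20 to 1.12, limma adjusted p 0.523) and by 1.07 ± 0.47 in rat (0.06 to 2.09, limma adjusted p 0.434), neither of which passed. Over the 12 arrays of a species left out in turn this difference ran from 0.26 to 0.77 in mouse, with 0.77 without 2 h MCAO replicate 3 and 0.26 without 2 h MCAO replicate 2, and from 0.68 to 1.31 in rat, with 0.68 without 6 h MCAO replicate 3. With the striatal marker covariate it was 0.25 in mouse and 1.56 in rat, and it passed under none of these. Between the species, the mouse effect minus the rat effect was -0.03 ± 0.39 at 6 h (SE, 95% interval -0.85 to 0.79, adjusted p 0.983 from the limma fits) and 0.58 ± 0.39 at 2 h (-0.24 to 1.40, adjusted p 0.998 from the limma fits). With the striatal marker covariate the difference at 6 h was -0.50 (adjusted p 0.786 from the limma fits). The intervals are wide and do not show that the species responded alike.

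**Figure D2:**
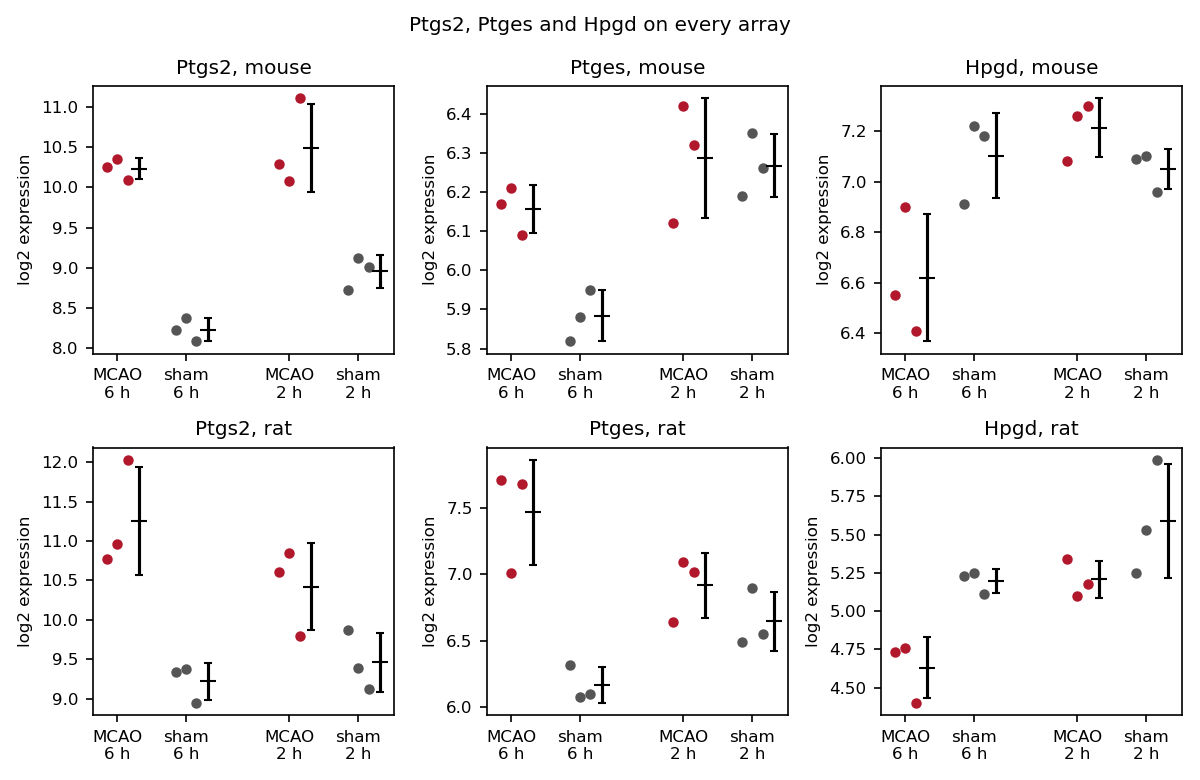
Deposited log2 value (y axis, its own range in each panel) of Ptgs2, Ptges and Hpgd in mouse (upper row) and rat (lower row), by group (x axis); each point is 1 animal, red after MCAO and grey after sham surgery, with the mean and SD of 3 animals in black. The MCAO points of Ptgs2 at 6 h lie between 10.09 and 10.35 in mouse and between 10.77 and 12.03 in rat, all above their sham points.

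Ptgs1, the constitutive cyclooxygenase, was measured in rat only and did not pass at either time. It read 6.21, 6.02 and 6.18 in MCAO rats at 6 h, against 6.05, 6.05 and 6.02 in sham rats, and 6.81, 6.72 and 6.87 in MCAO rats at 2 h, against 6.86, 6.88 and 6.85 in sham rats. The groups overlapped at both times. The effects were 0.10 at 6 h (95% interval -0.06 to 0.25, limma adjusted p 0.467) and -0.06 at 2 h (-0.22 to 0.09, limma adjusted p 0.899).

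Ptgs2 rose in both species and Ptges in rat only, while mouse Ptges did not pass at either time. The mouse start regions of these synthases are shown, and no rat sequence is shown. They are from RefSeq, build GRCm38.p6, written 5′ to 3′ on the strand of the gene. The first is Ptgs2 at chr1:150099781-150100030 (+ strand), the 250 bases before the start. The next is the 30 bases after the annotated start of Ptgs2, at chr1:150100031-150100060 (+ strand), in which capitals mark 2 overlapping motifs. The last is Ptges at chr2:30903298-30903547 (- strand), the 250 bases before its start. Each start is the annotated one, and where transcription began in this tissue was not measured.
Ptgs2 before the start: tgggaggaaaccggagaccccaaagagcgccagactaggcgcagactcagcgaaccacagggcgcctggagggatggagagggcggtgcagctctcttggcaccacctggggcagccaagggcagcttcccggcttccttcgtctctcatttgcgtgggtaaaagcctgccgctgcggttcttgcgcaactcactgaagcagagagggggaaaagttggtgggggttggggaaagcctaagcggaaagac
Ptgs2 after the start: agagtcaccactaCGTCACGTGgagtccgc
Ptges before the start: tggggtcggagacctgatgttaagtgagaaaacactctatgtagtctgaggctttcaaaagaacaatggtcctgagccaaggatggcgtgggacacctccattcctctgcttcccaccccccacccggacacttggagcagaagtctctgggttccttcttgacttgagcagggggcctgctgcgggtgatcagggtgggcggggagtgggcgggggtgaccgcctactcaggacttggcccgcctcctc
A search of both strands took 4 motifs. The core of the cAMP response element was searched as TGACG. The AP-1 motif was searched as TGANTCA. The TATA box was searched as TATAAA, and the E-box was searched as CACGTG. Neither 250-base stretch held any of them in these letters. The capitals after the Ptgs2 start are TGACG on the other strand, at base 14, and CACGTG at base 17, which share 2 bases. Of 32851 mouse promoters in the table, 2.26% held TGACG and 0.706% held CACGTG in their first 30 bases, and 17.8% and 6.02% held them in the 250 bases before the start. Of the 10 members, 9 had an entry, and of these only Ptges2 held any of the motifs before the start, a CACGTG that begins at base -77. After the start, Ptges3 also held TGACG, at base 12, and Hpgd held TATAAA, at base 5, which 0.734% of promoters hold in their first 30 bases. A match in these letters, or its lack, is a description, and binding was not tested.

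The genes whose pattern was nearest to Ptgs2 were named by a fixed rule, the smallest root mean square difference from Ptgs2 over the 12 arrays of a species, each array taken minus the sham mean of its time. In mouse the nearest 5 of 17428 genes were Gadd45g (0.23), Fosb (0.27), Ccn1 (0.32), Jun (0.43) and Fos (0.43), with a median of 1.30 over all of them. Gadd45g encodes a stress-response protein, Fos, Fosb and Jun encode subunits of the AP-1 transcription factor, and Ccn1 encodes a secreted matrix protein. In rat the nearest 5 of 17629 genes were Arc (0.32), Egr4 (0.35), Zfp36 (0.36), Gem (0.38) and Rgs2 (0.39), with a median of 1.20. Arc acts at synapses, Egr4 is a transcription factor, Zfp36 promotes the decay of messenger RNAs, Gem is a small GTPase and Rgs2 dampens G-protein signalling. No gene was on both lists of 5. Gadd45g, the nearest gene in mouse, was higher after MCAO than after sham surgery by 2.02 at 6 h and 1.24 at 2 h, while Arc, the nearest in rat, was higher by 1.76 at 6 h and 0.68 at 2 h. All 12 arrays of a species enter the measure, so it was given no test.

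**Figure D3:**
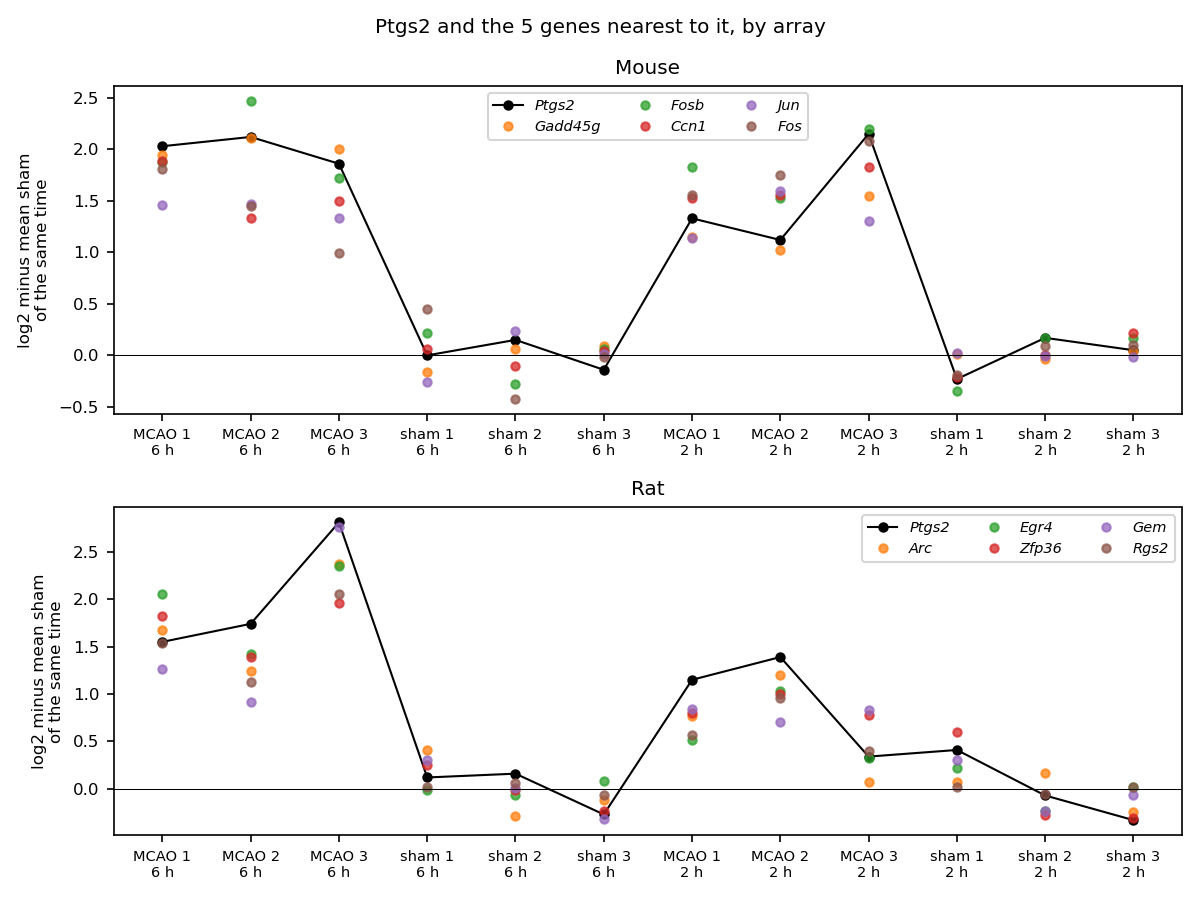
Log2 value minus the sham mean of its time (y axis) on each array (x axis) for Ptgs2, in black with a line that only guides the eye, and for the 5 genes nearest to it, in colour, in mouse (top) and rat (bottom). Gadd45g differs from mouse Ptgs2 by a root mean square of 0.23 and Arc from rat Ptgs2 by 0.32.

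Ptges encodes the inducible membrane enzyme that converts prostaglandin H2 to prostaglandin E2 and is often induced together with Ptgs2. In rats at 6 h it read 7.71, 7.01 and 7.68 after MCAO, against 6.32, 6.08 and 6.10 after sham surgery. Every MCAO rat was higher than every sham rat, though replicate 2 was lower than the other MCAO rats. The means were 7.47 ± 0.40 after MCAO and 6.17 ± 0.13 after sham surgery (SD, n = 3 each), a 2.46-fold rise (log2 1.30 ± 0.19 SE, 95% interval 0.90 to 1.70, limma adjusted p 0.00216). It ranked 64 from the top of 18166 rat genes, and leaving out any 1 array gave effects of 1.18 to 1.53 that all passed. In rats at 2 h it read 6.64, 7.09 and 7.02 after MCAO, against 6.49, 6.90 and 6.55 after sham surgery. The groups overlapped, and the 2 h effect of 0.27 ± 0.19 (SE, 95% interval -0.13 to 0.67) did not pass (limma adjusted p 0.814). The effect at 6 h was larger than that at 2 h by 1.03 ± 0.26 (SE, limma p 0.00196), which missed the threshold after adjustment (adjusted p 0.158). Without MCAO replicate 2 of the 6 h rats that difference was 1.26 and passed (limma adjusted p 0.0224). This was the 1 of 12 fits with an array left out that passed, with differences of 0.89 to 1.26 over them. It passed with 0 of 9 alternatives.

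Mouse Ptges moved much less. At 6 h it read 6.17, 6.21 and 6.09 in MCAO mice, against 5.82, 5.88 and 5.95 in sham mice. All 3 MCAO animals were above all 3 sham animals. The effect was 0.27 ± 0.08 (SE, 95% interval 0.10 to 0.45, 1.21-fold). Its unadjusted limma p was 0.00584, and it did not pass after Benjamini-Hochberg adjustment (0.0644). It passed with 1 of 10 alternatives, dim genes left out (limma adjusted p 0.0255), where 2502 of 12864 genes were called. With each of the 6 arrays left out in turn it did not pass (limma adjusted p 0.0843 to 0.165). At 2 h it read 6.12, 6.42 and 6.32 in MCAO mice, against 6.19, 6.35 and 6.26 in sham mice. These values overlapped, with an effect of 0.02 (95% interval -0.16 to 0.20, limma adjusted p 0.975).

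The species difference itself was tested for the 8 members measured in both. The effect on Ptges at 6 h was 0.27 in mouse and 1.30 in rat, a difference of -1.03 ± 0.20 (SE, 95% interval -1.45 to -0.60, adjusted p 0.0163 over 14193 shared symbols, from the limma fits). This was 1 of 8 members past the threshold at 6 h, against 2.28% of all shared symbols, and 1.19% with the mouse effect lower. It lost the call without rat MCAO replicate 1 (-0.90, adjusted p 0.0514 from the limma fits) or rat sham replicate 2 (-0.98, 0.0561) at 6 h, and with the striatal marker covariate (-1.11, 0.0708). At 2 h 0 of 8 members passed in the limma fits, against 0.0141% of shared symbols, and 1 had an unadjusted p under 0.05, against 3.96% of shared symbols. That member was Hpgd, with an effect of 0.16 in mouse and -0.38 in rat and a difference of 0.55 ± 0.20 (SE, p 0.0123, adjusted p 0.998 from the limma fits). The difference was 0.23 with the striatal marker covariate and 0.35 without rat sham replicate 3, the lowest of the arrays left out in turn. The sham mean of mouse Ptges at 6 h, 5.88, lay just below the medians of those arrays (5.92 to 5.93). The rat one, 6.17, lay above the medians of its arrays (5.82 to 5.87). Whether a weak signal of the mouse cluster lowered its effect was not tested. Mice and rats differed also in the side of the occlusion, the filament and the array design, and these cannot be told apart from species.

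**Figure D4:**
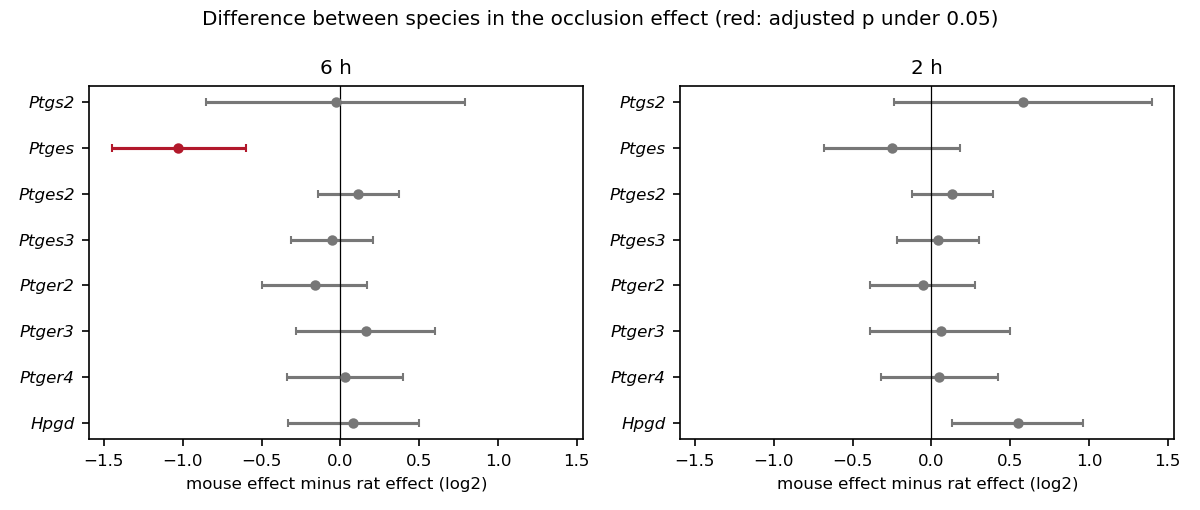
Mouse effect minus rat effect (x axis, log2) for each of the 8 members measured in both species (y axis), at 6 h on the left and 2 h on the right; points are differences of limma effects and bars 95% intervals. Only Ptges at 6 h, at -1.03, is past the threshold.

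Ptges2 and Ptges3 encode the other prostaglandin E synthases, Ptges2 a membrane-associated one and Ptges3 a cytosolic one that is better known as a co-chaperone of Hsp90. Neither passed in any comparison. Mouse Ptges2 at 6 h read 7.26, 7.01 and 7.15 after MCAO, against 6.94, 6.96 and 6.91 after sham surgery. The groups did not overlap, and the effect was 0.20 (95% interval 0.03 to 0.38, limma p 0.0274, adjusted p 0.152). In rats at 6 h Ptges2 had an effect of 0.09 (limma adjusted p 0.628). At 2 h its effects were 0.06 in mouse and -0.08 in rat (limma adjusted p 0.917 and 0.908). Rat Ptges3 at 6 h read 8.03, 8.21 and 7.89 after MCAO, against 7.84, 7.88 and 7.85 after sham surgery. Those groups lay just apart, with an effect of 0.19 (95% interval -0.03 to 0.40, limma adjusted p 0.299), and at 2 h the rat effect was 0.04 (limma adjusted p 0.959). Mouse Ptges3 had effects of 0.14 at 6 h and 0.08 at 2 h (limma adjusted p 0.299 and 0.841) on a dim cluster, read at 4.83 after MCAO and 4.70 after sham surgery at 6 h. The brighter of 2 mouse clusters annotated both to Ptges3 and to its pseudogene Ptges3-ps, and so not tested here, read 9.97 after MCAO and 9.88 after sham surgery at 6 h, and the other read 7.32 after MCAO and 7.16 after sham surgery.

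The 4 receptors are G-protein-coupled. Ptger1 raises calcium, Ptger2 and Ptger4 raise cyclic AMP, and Ptger3 mostly lowers it. None of the 3 receptors measured in mouse or the 4 measured in rat passed at either time, with effects of 0.01 to 0.36 in mouse and 0.06 to 0.21 in rat. The widest spread among the receptors was in mouse Ptger3 at 6 h, which read 6.79, 7.15 and 7.68 after MCAO, against 6.67, 6.95 and 6.92 after sham surgery. Its lowest MCAO value lay within the sham values, and the effect was 0.36 (95% interval -0.02 to 0.74, limma adjusted p 0.239). Without MCAO replicate 1 it was 0.57 and passed (limma adjusted p 0.0441), and without MCAO replicate 3 it was 0.12 (0.605). MCAO replicate 3, the highest for Ptger3, also had the highest mean of 5 choroid plexus markers at that time, 7.83 against 6.06 and 6.07 in the other MCAO mice and 5.88 to 6.72 in the sham mice. The part of choroid plexus RNA in this value was not tested.

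Ptger4 was above sham at 2 h in both species. It read 5.83, 6.04 and 5.84 in MCAO mice at 2 h, against 5.74, 5.42 and 5.77 in sham mice, and 5.91, 6.07 and 5.98 in MCAO rats at 2 h, against 5.69, 5.82 and 5.83 in sham rats. In neither species did the groups overlap. The effects of 0.26 in mouse (95% interval -0.04 to 0.56, limma adjusted p 0.711) and 0.21 in rat (-0.04 to 0.46, 0.767) did not pass. At 6 h they were 0.09 in mouse and 0.06 in rat. Ptger4 was dim in both species, with a mean no higher than the median of all clusters (5.98 in mouse, 6.27 in rat). Ptger1 in rats at 2 h read 6.85, 7.05 and 6.86 after MCAO, against 6.81, 6.82 and 6.73 after sham surgery, which also did not overlap. Its effect of 0.13 (95% interval -0.06 to 0.33, limma adjusted p 0.811) did not pass, nor did that of 0.07 at 6 h. Ptger2 had effects of 0.01 at 6 h and 0.15 at 2 h in mouse and of 0.18 at 6 h and 0.21 at 2 h in rat, on 2 rat clusters that held identical values. Rat Ptger3 had 0.20 at 6 h and 0.06 at 2 h. Mouse Ptger2 and rat Ptger3 were also dim by that measure. A cluster's level also depends on its probes, so levels were not compared between receptors.

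Hpgd encodes the dehydrogenase that inactivates prostaglandin E2, and it was the member that was lower after MCAO at 6 h in both species. In mice at 6 h it read 6.55, 6.90 and 6.41 after MCAO, against 6.91, 7.22 and 7.18 after sham surgery. The groups did not overlap, but the highest MCAO value was almost equal to the lowest sham value. The means were 6.62 ± 0.25 after MCAO and 7.10 ± 0.17 after sham surgery (SD, n = 3 each), and it fell by 0.48 ± 0.12 on the log2 scale (SE, 95% interval of the effect -0.75 to -0.21, limma adjusted p 0.0372). The call was lost without MCAO replicate 1 or 3 or sham replicate 2 or 3 (limma adjusted p up to 0.12) and with the striatal marker covariate (-0.63, adjusted p 0.172). Effects over the 6 arrays left out in turn ran from -0.62 to -0.38. In mice at 2 h Hpgd read 7.08, 7.26 and 7.30 after MCAO, against 7.09, 7.10 and 6.96 after sham surgery. Those groups overlapped, with an effect of 0.16 (95% interval -0.11 to 0.43, limma adjusted p 0.807). The effect at 6 h was below that at 2 h by -0.65 ± 0.17 (SE, limma p 0.00311), which did not pass after adjustment (0.147).

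In rats at 6 h Hpgd read 4.73, 4.76 and 4.40 after MCAO, against 5.23, 5.25 and 5.11 after sham surgery. All MCAO rats were below all sham rats. Rat Hpgd was dim, with a mean below the median of all rat clusters (6.27), so the fit without dim genes left it out. The effect of -0.57 ± 0.16 (SE, 95% interval -0.91 to -0.22, 0.675-fold) missed the threshold (limma p 0.00384, adjusted p 0.0552). With each of the 6 arrays left out in turn the effect was -0.63 to -0.45 and never passed (limma adjusted p 0.0599 to 0.167). It passed with 2 of 9 alternatives, a trended robust fit (limma adjusted p 0.0369) and the striatal marker covariate (-0.77, 0.0104). The trended robust fit called 1698 of all rat genes, against 1175 in the reported fit. The striatal mean spanned only 6.86 to 6.90 in MCAO rats and 6.71 to 6.78 in sham rats at 6 h. In sham rats at 2 h it spanned 7.54 to 7.98, so the slope of that covariate rested mostly on the 2 h arrays. At 2 h Hpgd read 5.34, 5.10 and 5.18 after MCAO, against 5.25, 5.53 and 5.99 after sham surgery, with overlapping groups and an effect of -0.38 ± 0.16 (SE, limma p 0.0326, adjusted p 0.652). That effect was -0.10 with the striatal marker covariate (limma adjusted p 0.999), and it ran from -0.55 to -0.18 over the arrays left out, with -0.18 without sham replicate 3. The same sham array had the highest choroid plexus marker mean of the rat arrays, 7.64 against 5.90 and 6.08 in the other sham rats at 2 h and 5.91 to 6.92 in the MCAO rats, and the part of that tissue was not tested. The mouse effect minus the rat effect at 6 h was 0.08 (95% interval -0.33 to 0.50, adjusted p 0.89 from the limma fits).

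Cell type markers moved beside these results. At 6 h the mean of 9 neutrophil markers was 5.19 to 5.36 in MCAO rats and 4.73 to 4.83 in sham rats, with 2 of the 9 genes risen, and 5.13 to 5.33 in MCAO mice and 5.01 to 5.04 in sham mice, with 1 of the 9 risen. The median effect of single neutrophil markers was 0.35 in rat (0.09 to 1.04) and -0.06 in mouse (-0.15 to 1.19). Most mouse neutrophil markers were thus slightly lower after MCAO, although their mean was higher. Microglial markers were lower at 6 h, at 7.44 to 7.66 in MCAO rats and 7.70 to 7.75 in sham rats (1 of 6 rose, 2 fell), and at 7.51 to 7.69 in MCAO mice and 7.79 to 7.85 in sham mice (0 of 7 rose, 3 fell). Endothelial markers were at 6.83 to 7.21 in MCAO rats and 7.20 to 7.51 in sham rats (0 of 5 rose, 1 fell), and at 6.76 to 7.05 in MCAO mice and 6.77 to 7.06 in sham mice (1 of 7 rose, 1 fell). Single endothelial markers had effects of -1.90 to 0.47 in rat (median -0.27) and -0.82 to 0.58 in mouse (median -0.11). Cortical excitatory neuron markers were at 8.82 to 8.85 in MCAO mice and 8.95 to 8.99 in sham mice (0 of 5 rose, 1 fell), and at 9.26 to 9.48 in MCAO rats and 9.62 to 9.69 in sham rats (0 of 4 rose, 1 fell). These cortical means did not overlap between MCAO and sham animals in either species. The median effect of single cortical markers at 6 h was 0.00 in mouse (-0.73 to 0.18) and -0.19 in rat (-0.91 to 0.26). In mouse the middle marker thus did not change, although the mean was lower. The mean of the 8 neuronal markers was 10.80 to 10.82 in MCAO mice and 10.89 to 10.92 in sham mice, and 11.21 to 11.27 in MCAO rats and 11.29 to 11.31 in sham rats. Striatal neuron markers in rats were at 6.86 to 6.90 after MCAO and 6.71 to 6.78 after sham surgery (0 of 8 rose, 0 fell). This was the opposite order to that in mice (0 of 7 rose, 2 fell). Single striatal markers had effects of -1.64 to -0.65 in mouse (median -0.70) and -0.07 to 0.37 in rat (median 0.10). The mouse and rat means rest on partly different genes, with Gpr6 in mouse only and Ppp1r1b and Adora2a in rat only. Choroid plexus markers in mice at 2 h were high on 1 array of each group, MCAO replicate 2 (7.98) and sham replicate 1 (8.35), with the other arrays at 6.11 to 6.45. The part of neutrophil, microglial, endothelial and neuronal RNA in the changes of Ptgs2, Ptges and Hpgd was not tested. The deposited values carry no detection calls, so no marker could be called absent.

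The rest of the eicosanoid pathway was read from 5 lists: 20 symbols for arachidonic acid release, 10 for the other prostanoid synthases, 6 for the other prostanoid receptors, 9 for prostaglandin transport and breakdown, and 18 for lipoxygenases and leukotriene genes. Of these 63 symbols, 54 were measured in mouse and 52 in rat. In mouse 0 rose and 1 of the 54 fell at each time, against 7.43% of all genes called at 6 h and 0.298% at 2 h. At an unadjusted limma p under 0.05 there were 8 at 6 h (23.3% of all genes) and 6 at 2 h (7.71%). In rat limma called 0 of the 52 at either time, against 6.47% of all genes at 6 h and 0.0661% at 2 h. At an unadjusted limma p under 0.05 there were 8 at 6 h (22.1% of all genes) and 5 at 2 h (7.08%). The mouse count at 6 h was 5 with dim genes left out (2502 of 12864 genes called) and 4 with the trended robust fit (2574 of 22180). It was 0 with 6 other alternatives, which called 26 to 1156 of all genes. The rat count at 6 h reached 2 with each time's arrays quantile normalized (1336 of 18166 genes called). The median effect over the lists was -0.02 at 6 h and 0.01 at 2 h in mouse and 0.00 at 6 h and -0.00 at 2 h in rat, beside the medians over all genes given above. At 6 h the median was 0.00 in mouse and -0.01 in rat for arachidonic acid release, 0.09 and -0.07 for the other synthases, and -0.03 and 0.07 for the other receptors. It was 0.07 in mouse and -0.08 in rat for transport and breakdown, and -0.04 and -0.05 for lipoxygenases and leukotriene genes. The 1 gene that fell in mouse was Alox12b, a lipoxygenase known from the skin barrier. At 6 h it read 7.03, 7.31 and 6.94 after MCAO, against 7.75, 7.48 and 7.40 after sham surgery (effect -0.45, limma adjusted p 0.0315). At 2 h it read 7.45, 7.24 and 7.30 after MCAO, against 7.90, 7.96 and 7.98 after sham surgery (effect -0.62, limma adjusted p 0.0446). The groups did not overlap at either time, but leaving out any 1 of the 6 arrays at 2 h ended that call (limma adjusted p 0.0724 to 0.213), and at 6 h 4 of the 6 did (up to 0.0958). Its effect in rats at 6 h was 0.31 and did not pass (limma adjusted p 0.0785). Pla2g4a, the cytosolic phospholipase that supplies arachidonic acid to the cyclooxygenases, is named for that role with its values known and had effects of 0.22 at 6 h and 0.20 at 2 h in mouse and -0.04 at 6 h and 0.02 at 2 h in rat, none past the threshold.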

How the data were processed

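The authors deposited 1 table of log2 expression values per species, with 12 arrays each. RNA was labelled for Affymetrix whole-transcript arrays per the labels' protocols. The submitters' processing notes name oligo and limma without versions. How background was corrected and arrays normalized is not stated in the sources used here. Sample titles gave the groups and the replicate numbers, and each array was 1 animal per the labels. The time point label reads 2 h for every sample, whereas titles, source names and descriptions give 2 h or 6 h. The titles were used. The mouse table holds 41345 transcript clusters (23521 with 1 gene symbol, 1814 with several, 16010 with none) and the rat file 36685 (18511, 575 and 17599). A gene with several single-symbol clusters was read from the brightest on average.

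The 4 group means of a species were fitted with limma 3.58.1 (R 4.3.3; 8 residual degrees of freedom, eBayes, two-sided, Benjamini-Hochberg over all genes tested, no filter on low values). Species effects were compared over 14193 shared symbols. The fit was tested on simulated data. All members were named in every comparison, as was any pathway-list gene past the threshold, up to 4 per list. The members and gene lists were chosen with earlier results of these data known. Alternatives covered normalization, arrays in the fit, array weights, dim genes, a fold limit, a trended robust fit, a replicate block and a striatal covariate, and each array was left out in turn.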

Additional observations from a re-analysis of the deposited data

Results flagged for a closer look

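The difference between species in the effect of MCAO on Ptges at 6 h, the mouse effect of 0.27 minus the rat effect of 1.30, was -1.03 and passed the test of the difference itself (adjusted p 0.0163 from the limma fits). The sham mean of mouse Ptges at 6 h, 5.88, lay just below the medians of its arrays, and the part of a weak signal was not tested. No other of the 8 members measured in both species passed the test of the difference at either time.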

How the results depend on the processing

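With 3 animals a group, small effects were beyond the precision of these arrays. In mice at 6 h, 2 members passed the threshold in the reported fit, which called 1649 of all 22180 genes. The member count was 1 with only the 6 arrays of that time (246 genes), with array weights (1156) and with every cluster tested (830). It was also 1 with a fold limit of log2 0.5 (26 genes) and 0 with the striatal marker covariate (65). It was 3 with dim genes left out, where Ptges joined (limma adjusted p 0.0255) and 2502 of 12864 genes were called. Over the arrays left out in turn the member count ran from 1 to 2, while 616 to 1368 of all genes were called. In mice at 2 h the count of 1 (66 of all genes called) became 0 with only 6 arrays (23 genes) and 0 with the fold limit (5). It ran from 0 to 1 over the arrays left out, while 23 to 42 of all genes were called. In rats at 6 h the reported fit called 1175 of 18166 genes. The count of 2 members became 0 with the fold limit, which called 41 genes (limma adjusted p 0.099 for Ptgs2 and 0.139 for Ptges). It was 3 with the trended robust fit, which called 1698 genes (limma adjusted p 0.0369 for Hpgd). It was also 3 with the striatal covariate, which called 606 genes (limma adjusted p 0.0104 for Hpgd). The slope of that covariate in rats rested mostly on the 2 h arrays. For the change over time in rat the count of 0 (42 of all genes called) ran from 0 to 1 over the arrays left out. Those fits called 11 to 140 of all genes. For the species difference at 6 h the reported test called 323 of 14193 shared symbols. The count of 1 member became 0 with only 6 arrays (65 symbols called) and 0 with the striatal covariate (42). It ran from 0 to 1 over the arrays left out, while 142 to 386 symbols were called. With the replicate number as a block, 665 of all mouse genes were called at 6 h and the member count was 1. Hpgd lost its call (limma adjusted p 0.0614), and no other member's call changed. Alox12b lost its calls at 6 h (limma adjusted p 0.0721) and at 2 h (0.157), where 35 of all mouse genes were called. Deviations of same-numbered animals correlated by -0.12 to 0.33, and those of unlike-numbered animals by -0.21 to 0.20. The 0.33, for replicate 2 of the rats at 2 h, was the highest of all. The numbers were not taken as pairs in the reported fit. No called member changed direction under any alternative tried. The fold limit was not run for the species difference. Causes of these changes were not tested.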
